A study of Poecilia mexicana x Poecilia latipinna and Poecilia formosa with 28 samples.

Results

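A small set of genes was higher in F1 hybrid mollies than in the clonal Amazon molly in more than 1 organ: 37 of the 31997 genes in the count table, or 0.116%. The set was chosen from the measured values themselves. In an organ, a gene met the rule if its lowest hybrid value was above its highest P. formosa value, its hybrid mean was at least 1 CPM (the gene's count divided by the library's total count and multiplied by 1000000), and the ratio of the hybrid to the P. formosa mean was at least 3, with 0.1 CPM added to each mean. Genes that met the rule in 2 or 3 of the 3 organs are the members, and the limit of 200 members was not reached. Levels and ratios between the genotypes in the organs that met the rule are therefore a description of the choice, and no test is given for them. Between the genotypes, members are tested only in an organ that took no part in picking them. Other tests of members compare hybrid libraries with each other, and the rule used these libraries too.

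The F1 hybrids were 6 females of a single brood, from a cross of 1 virgin Poecilia mexicana female with 1 Poecilia latipinna male. The clonal fish were 4 sibling females of 1 laboratory line of Poecilia formosa, kept in aquaria for about 70 generations. All fish were 3 months old, untreated, and matched in size, and both groups shared the same rearing conditions. Brain and liver were sequenced from 6 hybrids and 4 P. formosa fish, and ovary from 4 and 4, which gives 28 libraries of messenger RNA. With 1 brood and 1 clone, the spread between fish is the spread among siblings, which is all that the p-values measure, and a difference between these families cannot be told apart from a difference between the kinds of fish.

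The Amazon molly is an all-female fish of hybrid origin. Its eggs are made without the usual halving and mixing of the parental chromosomes, and sperm of a related species only starts their development, so daughters carry the genome of the mother. A clonal fish and a first-generation hybrid of the same parent species therefore both carry a set of chromosomes from each species. The hybrids received both sets directly from their parents, while in the clone they have been handed down together since the founding cross.

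Libraries held 32460110 to 37706902 counts for brain, 40586409 to 46316691 for liver and 41249726 to 45987727 for ovary, so that 3 counts were worth 0.0648 to 0.0924 CPM. The first principal component of log2 CPM placed all hybrids on one side of all P. formosa fish in each organ, and in brain P. formosa fish 4 and 11 stood apart from the other 2 P. formosa fish, at scores of -48.7 and -112 against 4.55 and 0.0880. Genes carry numeric IDs without names, so the roles of the members are not known here and the markers that would check the organ labels could not be looked up. At most 2 IDs are given per group of members and direction. In whole organs, fewer cells of a type and less RNA per cell cannot be told apart.

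Of the 37 members, 7 met the rule in all 3 organs, 8 in brain and liver, 14 in brain and ovary, and 8 in liver and ovary. In brain 83 genes of the table met the rule (0.259%), in liver 383 (1.20%), and in ovary 1.23% of the genes did. Brain and liver shared 15 genes, which are 18.1% of the brain list and 3.92% of the liver list. Brain and ovary shared 21 genes, 25.3% of the brain list and 5.34% of the ovary list. Liver and ovary shared 15 genes, 3.92% of the liver list and 3.82% of the ovary list. With the genotypes exchanged, the same rule found 288 genes higher in P. formosa in 2 or 3 organs, from lists of 439 brain, 1596 liver and 473 ovary genes. In each organ the hybrid list was shorter than the P. formosa list, in CPM from plain totals. The exchanged rule was not run with another scaling. The members took 29 of the 83 brain genes and 23 of the 383 liver genes. These shares depend on the lengths of the lists, and the brain list was the shortest.

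**Figure D1:**
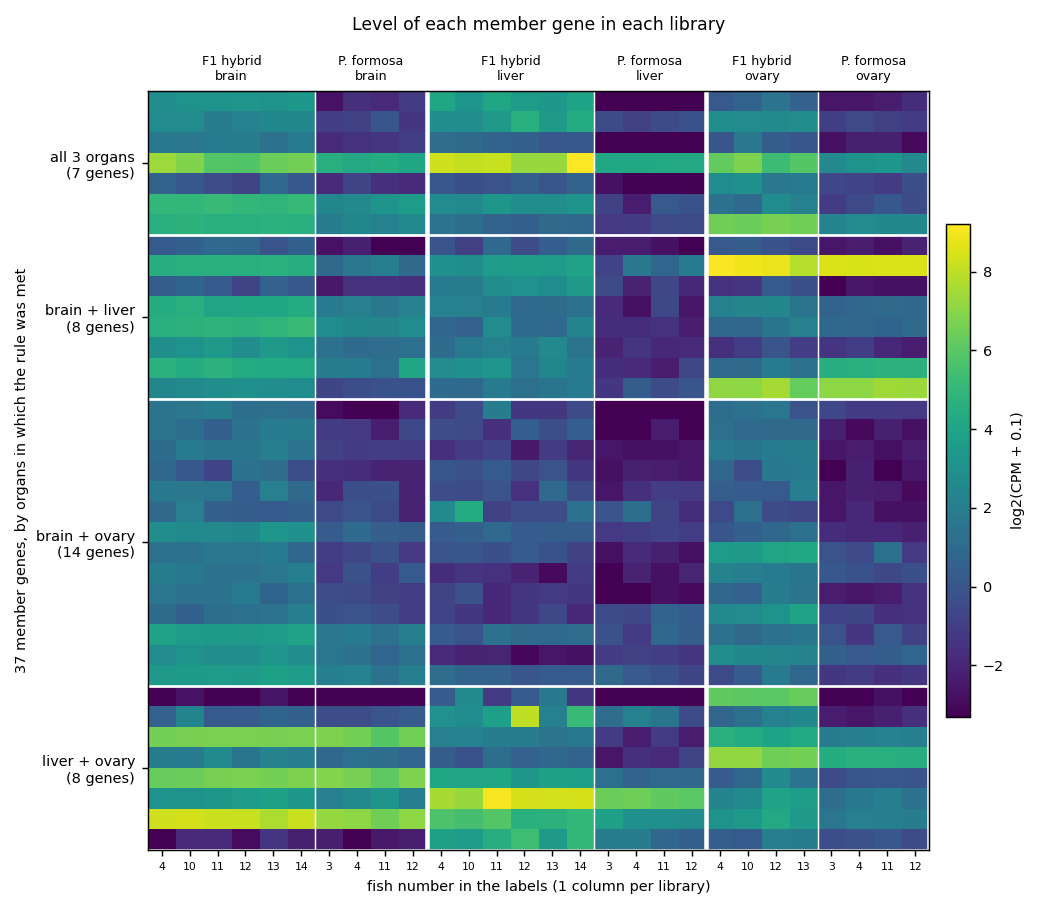
Level of each of the 37 member genes (rows) in each of the 28 libraries (columns, with the fish number), as log2(CPM + 0.1), hybrids left of P. formosa in each organ and genes grouped by the organs that met the rule; the colours compare genotypes within an organ. The 7 genes of the top block are brighter in every hybrid than in every P. formosa fish of all 3 organs, and in the 2-organ blocks the third organ shows no such step for many genes.

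The members gave 81 pairs of a gene and an organ that met the rule. In brain the ratio of hybrid to P. formosa ran from 3.00 to 28.3 over 29 genes, with a median of 4.71. In liver it ran from 3.25 to 136 over 23 genes, with a median of 10.8. In ovary it ran from 3.14 to 629 over 29 genes, with a median of 8.26. A ratio of 10 or more was seen in 28 of the 81 pairs, and 4 members had such a ratio in at least 2 organs that met the rule. The 2 members nearest the limit of 3 had a second-highest ratio of 3.004 and 3.062 among organs without overlap, and the 2 genes just outside it had 2.997 and 2.992.

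Levels ranged widely. Of the 37 members, 20 had a hybrid mean of at least 10 CPM in an organ that met the rule, and 7 had at least 100 CPM in some organ. Over pairs of a gene and an organ, the hybrid mean was under 5 CPM in 42 of the 81 pairs and at least 10 CPM in 25, and the P. formosa mean was under 1 CPM in 54. Over the members that met the rule, the median hybrid mean was 5.44 CPM for brain, 5.86 CPM for liver and 3.53 CPM for ovary. Over all genes with at least 1 CPM in hybrids, it was 17.3 CPM for brain, 8.90 CPM for liver and 20.1 CPM for ovary. In 3 pairs, all in liver, no read was counted in any P. formosa fish. The P. formosa mean was 1 CPM or more in 27 pairs, so that both genotypes were well counted there.

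**Figure D2:**
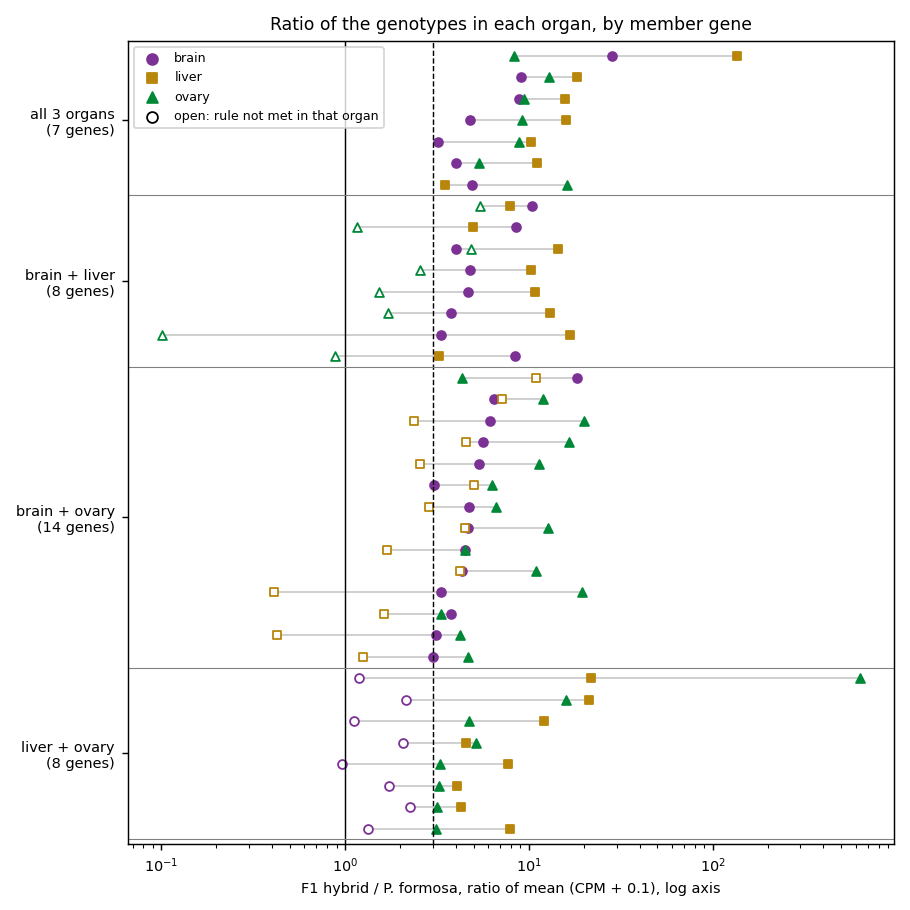
Ratio of the F1 hybrid to the P. formosa mean (0.1 CPM added to each, log axis) for each member gene (rows) in brain, liver and ovary; filled symbols met the rule, open ones did not, the dashed line is a ratio of 3 and the solid line a ratio of 1. All 3 symbols lie above 1 for 32 of the 37 genes, and 5 genes have an open symbol under 1. The rule put every filled symbol at 3 or more, so only open ones could fall under 1.

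Gene 103131645 had the highest second-highest ratio of the 7 genes that met the rule in all 3 organs. In liver it stood at 9.54, 13.7 and 17.1 CPM in hybrids (lowest, median and highest of 6), and no read was counted in the 4 P. formosa livers, which makes it at least 766-fold higher against 3 counts over that group. In brain it stood at 6.95, 8.48 and 10.1 CPM in hybrids, against 0.0544, 0.230, 0.190 and 0.356 CPM in P. formosa fish 3, 4, 11 and 12. The gap in brain was wide and the hybrids were close together, at 8.61 ± 1.04 CPM (SD, n = 6) against 0.208 ± 0.124 CPM in P. formosa (n = 4). In ovary it had 1.02, 1.49, 2.59 and 1.45 CPM in hybrids 4, 10, 12 and 13, against 0.0698, 0.0697, 0.0928 and 0.208 CPM in P. formosa.

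Every hybrid library held counts of gene 103133117, with hybrid means of 5.44 ± 1.10 CPM in brain (SD, n = 6), 13.3 ± 6.97 in liver (n = 6) and 6.77 ± 0.536 in ovary (n = 4). Its P. formosa means were 0.510 ± 0.282, 0.627 ± 0.160 and 0.435 ± 0.101 CPM in the same organs (n = 4 each). The hybrid livers spread widely, at 6.88, 11.0 and 23.1 CPM (lowest, median and highest), and all were above the 0.806 CPM of the highest P. formosa liver.

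The most abundant of the 7 genes was counted strongly in both genotypes. It stood at 296 ± 160 CPM in hybrid liver (SD, n = 6) and 18.6 ± 0.616 CPM in P. formosa liver (n = 4), and the 4 P. formosa livers lay between 17.9 and 19.4 CPM. In brain it had 96.4 ± 41.4 CPM in hybrids and 20.0 ± 2.87 CPM in P. formosa, and in ovary 69.5 ± 28.1 CPM and 7.44 ± 1.83 CPM (n = 4 each). The hybrid livers ranged from 158 to 595 CPM for this gene, a wider span than that of the clonal fish. Another of the 7 was ovary-high, with 90.7 ± 7.74 CPM in hybrid ovary against 5.56 ± 0.734 CPM in P. formosa ovary, and had 24.5 ± 1.75 against 4.93 ± 0.986 CPM in brain and 1.90 ± 0.490 against 0.469 ± 0.143 CPM in liver. One more of these genes, at 32.3 ± 1.96 CPM in hybrid brain and 7.97 ± 3.07 CPM in P. formosa brain, had 7.63 ± 1.35 and 0.600 ± 0.413 CPM in hybrid and P. formosa liver. The remaining 2 were lower, with hybrid means of 1.04 to 5.27 CPM over the 3 organs, and had 0 and 2 counts in all over the 4 P. formosa livers.

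Of the 8 genes that met the rule in brain and liver, gene 103133103 was also higher in hybrid ovary but stayed under the level limit there. It had 0.863, 1.40 and 1.87 CPM in hybrid brains (lowest, median and highest of 6), against 0.0544, 0.115, 0 and 0 CPM in P. formosa brains. In liver it had 0.414, 1.04 and 1.90 CPM in hybrids, against 0.0922, 0.0927, 0.0472 and 0 CPM in P. formosa. In ovary hybrids had 1.02, 1.22, 0.800 and 0.603 CPM and P. formosa 0.0698, 0.0930, 0.0464 and 0.139 CPM. All hybrids were above all P. formosa fish in each organ, at levels where 1 P. formosa library held at most 6 counts.

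Gene 103152332 showed another pattern, with a difference in the organs where it was scarce and none detected in the organ where it was abundant. It had 23.9 ± 1.20 CPM in hybrid brain (SD, n = 6) and 2.70 ± 0.983 CPM in P. formosa brain (n = 4), and 11.0 ± 2.92 CPM in hybrid liver against 2.15 ± 1.36 CPM in P. formosa liver. In ovary it stood at 562, 497, 457 and 223 CPM in hybrids and at 381, 350, 381 and 379 CPM in P. formosa, with overlap (log2 fold change 0.23, edgeR quasi-likelihood test, adjusted p = 0.528). The member in the row before it in the table behaved the same way: 6.65 ± 0.847 against 0.705 ± 0.130 CPM in brain, 2.70 ± 0.773 against 0.761 ± 0.379 CPM in liver, and 134 ± 44.5 against 152 ± 20.1 CPM in ovary (hybrid first, log2 fold change in ovary -0.17, adjusted p = 0.630). Of the other 5 members of this group, 4 had hybrid brain means of 8.84 to 28.2 CPM.

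The group of brain and ovary was the largest, with 14 genes. Gene 107835311 had 2.11, 2.57 and 3.91 CPM in hybrid brains (lowest, median and highest of 6), against 0.0272, 0, 0 and 0.192 CPM in P. formosa brains. In ovary it had 2.15, 2.44, 2.91 and 0.820 CPM in hybrids, against 0.535, 0.372, 0.371 and 0.324 CPM in P. formosa. In liver it had no count in P. formosa and 0.311, 0.481 and 3.72 CPM in hybrids, at least 54.4-fold higher, but the hybrid mean was just under 1 CPM. The liver value leaned on hybrid fish 11: the ratio was 10.9 with that fish and 5.44 without it. Gene 107834022 had 2.68 ± 0.887 CPM in hybrid brain (SD, n = 6) and 0.332 ± 0.180 CPM in P. formosa brain (n = 4), and 2.00 ± 0.233 against 0.0755 ± 0.0479 CPM in ovary (n = 4 each). Of the 14 genes, 10 had a hybrid mean under 1 CPM in liver, in the plain CPM of the rule. For 5 of these that level was all that kept the liver from meeting the rule. How liver compares with the other organs depended on the scaling, as given below.

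Among the 8 genes of liver and ovary, gene 103135010 came closest to being present in the hybrids only. In ovary it had 71.7, 66.5, 63.5 and 78.5 CPM in hybrids, against 0, 0, 0.0464 and 0 CPM in P. formosa. The P. formosa values are 2 counts over 4 libraries. Its ratio by the rule, with 0.1 CPM added to each mean, was 629 there. From pooled counts over pooled totals, with nothing added, the gene was 6033 times higher, with a 95% exact counting interval from 1670 to 49825. In liver it had 0.308, 1.12 and 6.18 CPM in hybrids (lowest, median and highest of 6) and no count in P. formosa, at least 120-fold higher. In brain it had 4 counts over the 6 hybrids and none in P. formosa, so no difference could be measured there. The hybrid ovaries were close together and the hybrid livers were not, and without hybrid fish 10 the liver ratio was 13.5 in place of 21.7.

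Gene 103143315 owed most of its liver mean to a single fish. In hybrid livers it had 7.95, 6.86, 13.6, 262.5, 4.52 and 36.3 CPM in fish 4, 10, 11, 12, 13 and 14, against 2.10, 4.40, 2.81 and 0.664 CPM in P. formosa livers. Without fish 12 the liver ratio was 5.37 in place of 21.3, and the lowest hybrid was still above the highest P. formosa fish. In ovary it had 1.63, 2.37, 4.39 and 5.74 CPM in hybrids, against 0.0931, 0.0697, 0.116 and 0.232 CPM in P. formosa, with a wide gap between the groups.

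Other members of this group were abundant in brain and alike there in both genotypes. One had 101 ± 2.87 CPM in hybrid brain (SD, n = 6) and 90.1 ± 20.2 CPM in P. formosa brain (n = 4), but 3.74 ± 0.672 against 0.216 ± 0.141 CPM in liver and 20.2 ± 4.13 against 4.18 ± 0.327 CPM in ovary. Another spanned 78.1 to 107 CPM in hybrid brain and 68.2 to 119 CPM in P. formosa brain, and had 14.5 ± 2.60 against 1.81 ± 0.347 CPM in liver. In ovary it had 2.98 ± 2.36 CPM in hybrids and 0.841 ± 0.145 CPM in P. formosa, and without hybrid fish 12 its ovary ratio was 2.06 in place of 3.27, under the limit. A member with 287 ± 44.7 CPM in hybrid brain and 127 ± 25.3 CPM in P. formosa brain was higher there too, with a ratio of 2.25.

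**Figure D3:**
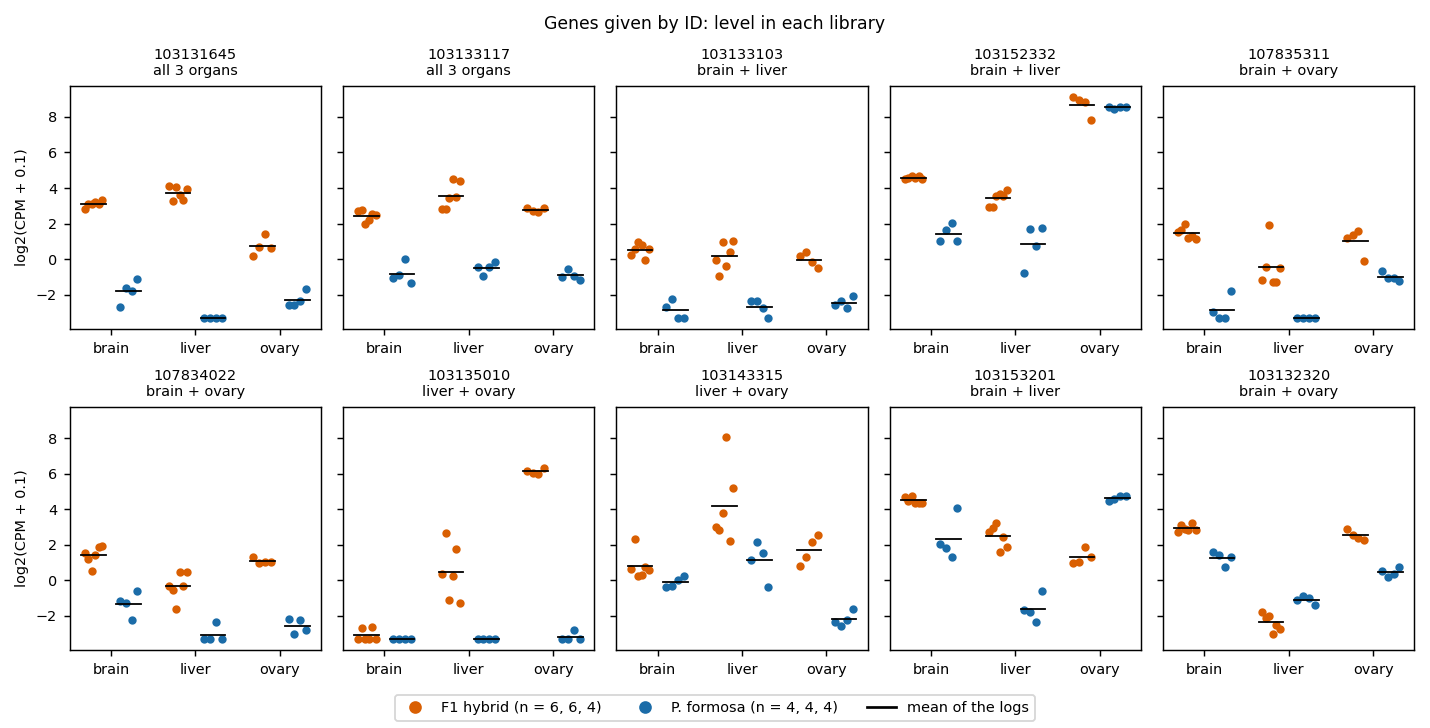
Level of the 10 genes given by ID in each library, as log2(CPM + 0.1), with hybrids (orange; 6 brains, 6 livers, 4 ovaries) left of P. formosa (blue; 4 of each) and a line at the mean of the logs; points at the bottom edge near -3.3 have no count. The first 8 genes show separate groups in the organs named above each panel, and the last 2 show the groups in the opposite order in ovary (103153201) or liver (103132320).

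The third organ of the 30 members that met the rule in 2 organs was mixed. These genes failed the rule there by definition, so the mix is partly set by the choice. The shares in brackets are over all 31997 genes, 3888 of which had no count in any library, and are no matched comparison. In ovary, all hybrids were above all P. formosa fish for 3 of the 8 genes of brain and liver (10.4% of all genes), all below for 1 (12.7%), and the groups overlapped for 4. In liver, all hybrids were above for 7 of the 14 genes of brain and ovary (5.92%), all below for 1 (13.0%), and the groups overlapped for 6. In brain, all hybrids were above for 2 of the 8 genes of liver and ovary (3.54%), all below for 0 (5.20%), and the groups overlapped for 6.

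In 2 members every hybrid was thus below every P. formosa fish in the third organ. Gene 103153201 had 1.85, 1.95, 3.56 and 2.34 CPM in hybrid ovaries, against 22.1, 23.9, 26.8 and 26.3 CPM in P. formosa ovaries, while in liver it had 5.86 ± 2.36 CPM in hybrids (SD, n = 6) and 0.258 ± 0.198 CPM in P. formosa (n = 4). In brain it had 19.9, 21.1 and 26.8 CPM in hybrids (lowest, median and highest of 6), against 3.94, 3.48, 2.39 and 17.0 CPM in P. formosa fish 3, 4, 11 and 12. Fish 12 stood near the hybrids, and without it the brain ratio was 6.69 in place of 3.32. Gene 103132320 had 0.0225, 0.101 and 0.194 CPM in hybrid livers, against 0.369, 0.440, 0.402 and 0.285 CPM in P. formosa livers, and was higher in hybrid brain and ovary, at 7.56 ± 0.988 against 2.36 ± 0.549 CPM and 5.73 ± 1.08 against 1.29 ± 0.236 CPM. Its liver levels rest on at most 19 counts per library. The difference between the organs in these genes was not tested, because the rule used the same contrast.

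A test was possible in the organ that took no part in picking a gene. Genes were picked from 2 organs alone, whatever the third organ showed, and the third organ was then tested with edgeR's quasi-likelihood test over all its genes. The libraries of the third organ were not used in the choice, but they come from the same fish. All picked genes stay in the counts below, whether or not they passed the filter on low counts, since a gene that passed it through the hybrids alone had to differ.

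Of the 15 genes picked from brain and liver, 10 were higher and 1 was lower in hybrid ovary, while 13.1% of all ovary genes tested were higher and 14.2% lower (adjusted p under 0.05). Of the 21 genes picked from brain and ovary, 15 were higher and 2 lower in hybrid liver, where 22.5% of all genes tested were higher and 24.2% lower. Of the 15 genes picked from liver and ovary, 9 were higher and 0 lower in hybrid brain, where 4.27% of all genes were higher and 7.79% lower. DESeq2's test gave 10, 17 and 10 higher genes in ovary, liver and brain, and 1, 2 and 0 lower, where 16.3%, 24.8% and 8.04% of all genes were higher. With the replicate number as a block, the picked genes called higher were 4 in ovary, 13 in liver and 4 in brain. Of all genes, 1.03%, 13.2% and 0.177% were then called higher. Numbers shared by the genotypes name different animals, so this block is no pairing. At an unadjusted p under 0.05 (edgeR), 0 of the 13 picked genes tested were lower in hybrid brain as well. Of these, 7 met the rule in brain and could not be lower. The share of all genes at that limit was not counted, so nothing is read from this 0. The 3 lists are not independent. The 7 genes that met the rule in all 3 organs are in each list, and edgeR called all 7 higher in each organ. Singled out this way, these 7 had all hybrids above all P. formosa fish in the tested organ by definition. Their calls are therefore no test. Of the other picked genes, 3 of 8 were called higher in ovary, 8 of 14 in liver and 2 of 8 in brain. Their median log2 fold changes, over those tested, were 0.82, 2.35 and 0.92. These other genes failed the rule in the tested organ by definition.

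The median log2 fold change of hybrid over P. formosa over the picked genes that could be tested was 3.24 in ovary (15 genes), 3.22 in liver (20 genes) and 1.98 in brain (13 genes). Over all genes tested it was 0.02, -0.01 and -0.03. The 3 liver genes without a P. formosa count have lower bounds of 766-, 84.9- and 54.4-fold, all above the liver median. Setting them at these bounds therefore had to leave the median at 3.22 and is no check of it.

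Going by the labels, library numbers form 2 ranges, and all P. formosa fish share the first range with hybrids 4 and 10. With these 2 hybrids alone, the numbers called higher were 11 of 15 in ovary, 15 of 21 in liver and 6 of 15 in brain, where 14.9%, 17.5% and 0.518% of all genes were called higher. With the range as a term in the model they were 10, 15 and 8, where 12.8%, 17.6% and 1.23% of all genes were. The 2 lower calls in liver were lost both ways, leaving 0. Leaving out P. formosa brains 4 and 11 gave 10 of 15 in brain, where 1.64% of all genes were called higher. The liver background depended on the scaling, since upper-quartile factors gave 17.3% higher and 28.9% lower liver genes, while the picked genes stayed at 15 higher.

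**Figure D4:**
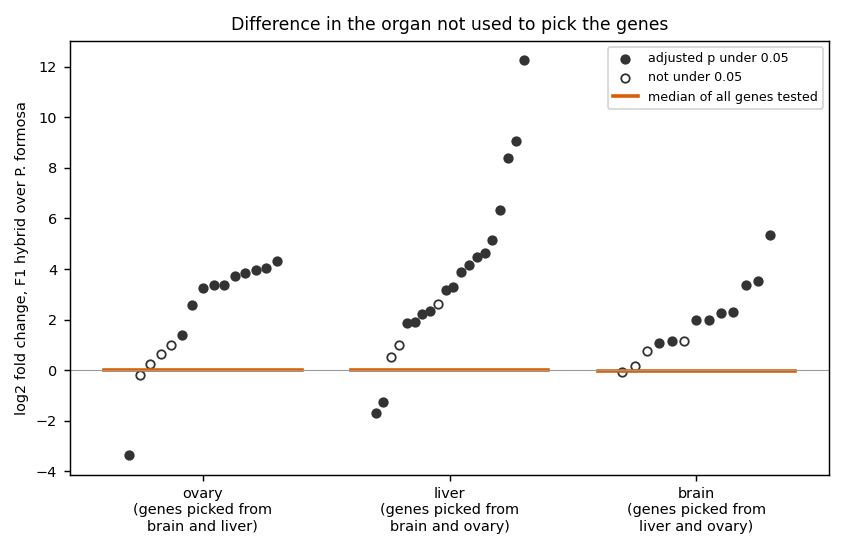
Log2 fold change, F1 hybrid over P. formosa, in the organ that was not used to pick the genes (edgeR; each point is 1 gene that passed the filter, filled where adjusted p was under 0.05), with the median of all genes tested as an orange line. Filled points above 0 number 10 in ovary, 15 in liver and 9 in brain; the values over 8 in liver belong to genes with no P. formosa count there and depend on the fit's prior count.

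The order of the organs depended on the scaling. In plain CPM, 18 of the 37 members were highest in hybrid brain (48.6%), 8 in liver (21.6%) and 11 in ovary (29.7%). Of the 17054 genes with at least 1 CPM in hybrids in 2 or 3 organs, 41.9% were highest in brain, 9.68% in liver and 48.4% in ovary. These shares were not counted with TMM factors. With TMM factors, which also correct for what a few abundant genes take up, 12 members were highest in brain, 15 in liver and 10 in ovary, and 30 had the same highest organ both ways. TMM moved the members' log2 ratio of brain over liver by a median of -1.84 and that of liver over ovary by 1.87, against 0.02 for brain over ovary. The direction between brain and liver turned for 12 members, 103152332 among them, and that between liver and ovary for 9. No order between liver and another organ is therefore read from plain CPM alone.

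With TMM factors, within hybrids, 14 members were higher and 15 lower in brain than in liver (edgeR quasi-likelihood test over all hybrid libraries, adjusted p under 0.05), where 47.4% of all genes tested were higher and 33.5% lower. Between hybrid brain and ovary, 14 were higher and 9 lower in brain, where 41.5% of all genes were higher and 41.0% lower. Between hybrid liver and ovary, 20 were higher and 11 lower in liver, where 30.6% of all genes were higher and 49.7% lower. The median log2 fold change of liver over ovary was 1.35 over the 37 members and -0.68 over all genes tested. The members' choice asked for a hybrid level of at least 1 CPM in 2 organs, which many of the genes tested did not have. These shares and medians are therefore no matched comparison, and their difference is partly set by the choice.

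Hybrid fish of the same brood differed from each other at these genes. The highest hybrid was 1.72 times the lowest in brain, as the median over the 29 members that met the rule there, and 1.41 times over all genes with at least 1 CPM in hybrids. In liver the medians were 2.78 times over 23 members and 2.10 times over all such genes. In ovary they were 2.54 times over 29 members and 1.34 times over all such genes. The members were scarcer than these genes, as given above, and the part of counting error in the spread was not tested. The widest spread was 58.0 times, in the liver of gene 103143315, and the highest hybrid was under 2 times the lowest in 19 brain, 8 liver and 11 ovary pairs.

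Some members differed between hybrids of the 2 library-number ranges. In brain 0 of the 35 members tested differed (edgeR, adjusted p under 0.05), where 1.19% of all genes did (0.248% higher and 0.942% lower in the second range). In liver 3 of 36 were higher and 2 lower in the second range, where 10.2% of all genes differed (4.60% higher and 5.64% lower). In ovary 2 of 37 were higher and 2 lower, where 4.55% of all genes differed (2.23% higher and 2.32% lower). At an unadjusted p under 0.05 (edgeR), 7 members differed in brain, 14 in liver and 16 in ovary. The share of all genes at that limit was not counted, so these numbers do not show whether members differ more often than other genes. DESeq2 called 2 members in brain, both lower, where 2.30% of all genes were higher and 3.35% lower. The member with the highest liver level had 523, 334, 329 and 338 CPM in second-range livers (fish 11 to 14) against 191 and 153 CPM in first-range livers (fish 4 and 10), with a log2 fold change of 1.14 (adjusted p = 0.0187), and 1.26 in ovary (adjusted p = 0.0398). The number of calls changed with single fish, over all genes as well. Without hybrid 11, 12, 13 or 14 the liver number was 8, 4, 1 or 2. Of all liver genes, 8.75%, 4.94%, 2.96% and 1.73% were then higher and 8.54%, 5.59%, 3.72% and 2.58% lower. Without hybrid 13 the brain number was 1, where 1.98% of all genes were higher and 3.27% lower. Leaving out hybrid 4 or 10, or in ovary hybrid 12 or 13, left a single fish in a range, so no conclusion is drawn from those fits.

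**Figure D5:**
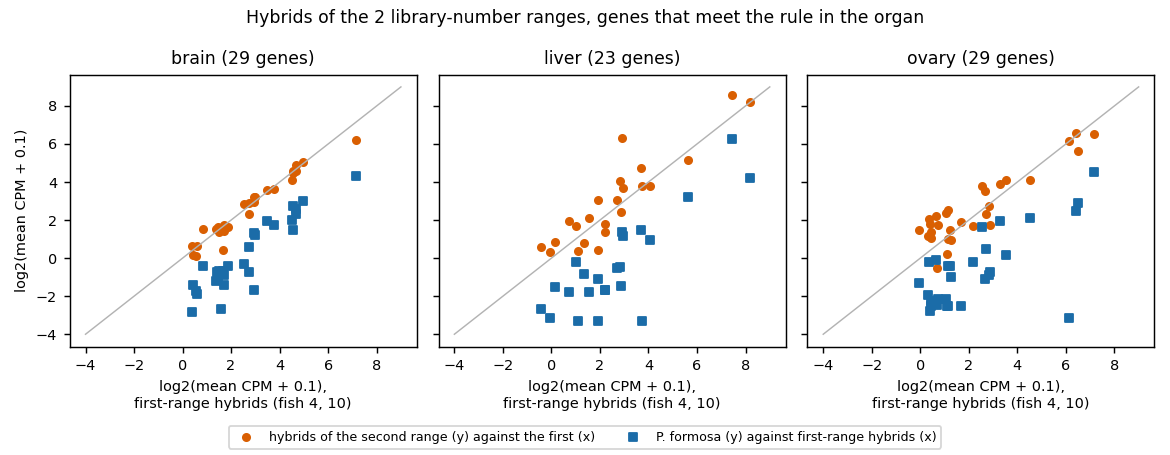
Mean level of the genes that met the rule in each organ, as log2(mean CPM + 0.1): hybrids of the second library-number range (orange, fish 11 to 14 in brain and liver, 12 and 13 in ovary) and P. formosa (blue squares, 4 fish) against hybrids of the first range (fish 4 and 10); the grey line marks equal levels. The orange points lie on both sides of the line and the blue squares lie under it, as the rule required.

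Some members stood close together in the deposited table. The table does not say how its rows are ordered, and no positions are given in it. Of the 37 members, 6 (16.2%) had another member within 10 rows, and 2.15% of the other genes had a member that near. They formed 3 pairs, at distances of 1, 3 and 8 rows. The pair 1 row apart is gene 103152332 and the ovary-abundant gene before it, described above. The pair 3 rows apart met the rule in liver and ovary: one gene had 312 ± 131 CPM in hybrid liver and 9.82 ± 4.90 CPM in hybrid ovary, and the other had 1.47 ± 0.482 and 118 ± 30.1 CPM. The pair 8 rows apart joins the most abundant of the genes that met the rule in all 3 organs to a scarce gene of the brain and ovary group, with 3.21 ± 0.701 CPM in hybrid brain and 0.638 ± 0.350 CPM in P. formosa brain.

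The genes in the rows next to members were also called between the genotypes. Of 72 such genes that are no members, 48 were tested in brain, where 7 were higher (14.6%) and 8 lower (16.7%) in hybrids. In liver 13 of 39 were higher (33.3%) and 9 lower (23.1%), and in ovary 11 of 47 were higher (23.4%) and 6 lower (12.8%). Of all genes, 4.27% were higher and 7.79% lower in hybrid brain, 22.5% and 24.2% in hybrid liver, and 13.1% and 14.2% in hybrid ovary. In brain the neighbours were above these shares in both directions. In liver and ovary they were above them for genes higher in hybrids and below them for genes lower in hybrids. No test was made of these shares.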

How the data were processed

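TruSeq libraries of messenger RNA were made from 3 organs, per the labels' protocols. The authors deposited 1 table of raw read counts per gene, without normalization. The submitters' processing notes name TopHat2 and featureCounts. Settings, strand handling, genome build and annotation are not given in the sources used here, and whether the reference takes up reads of both parent species equally was not tested. Columns were matched to samples by library name, and 0 columns were left unused.

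The rule used CPM from plain column totals. Tests across genes used edgeR 4.0.16 in R 4.3.3 (filterByExpr, TMM, robust quasi-likelihood test, Benjamini-Hochberg adjustment over all genes tested, called at 0.05), with DESeq2 1.42.0 as an alternative. Fits were run on simulated counts with the same spread for every gene and no changes in scarce genes. That check therefore does not cover scarce members or those that vary widely between fish. Lower bounds use 3 counts over the group, and intervals and bounds cover counting error only, since reads are not independent molecules. Organs of a number come from the same animal: deviations of such hybrid libraries correlated at 0.01 to 0.23 between brain and liver, 0.13 to 0.18 between brain and ovary and -0.06 to 0.15 between liver and ovary. No libraries of a group agreed within sampling noise (lowest chi-square per degree of freedom 12.7).

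The members, lists and tests were chosen with earlier results of these data known. Without gene names, the lists of gene groups and of organ and cell type markers could not be run. The naming rule took the members with the largest second-highest ratio in each group of organs, the highest hybrid means, those nearest the limit, those with all hybrids below in the third organ and those close in the table. With no names, it allows at most 2 IDs per direction, read here as 2 per group of organs, and the others are described without ID.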

Additional observations from a re-analysis of the deposited data

Results flagged for a closer look

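Of 56 groups of fish tested among the 10 genes given by ID, 10 had a highest or lowest fish far from the others by Dixon's criterion, which flags about 1 group in 20 (5%) by chance. In hybrids these were gene 103143315 at 262.5 CPM in the liver of fish 12 and at 4.91 CPM in the brain of fish 10, gene 107835311 at 3.72 CPM in the liver of fish 11, and gene 107834022 at 2.35 CPM in the ovary of fish 4. In P. formosa, gene 103153201 stood at 17.0 CPM in the brain of fish 12, and gene 103152332 stood low, at 350 CPM, in the ovary of fish 4. The other 4 rest on few counts in P. formosa: gene 103131645 at 0.208 CPM in the ovary of fish 12, gene 107835311 at 0.192 CPM in the brain of fish 12, gene 107834022 at 0.0945 CPM in the liver of fish 11, and gene 103135010 at 0.0464 CPM in the ovary of fish 11. For genes 107834022 and 103135010 only 1 fish of the group had any count. The criterion flags such a group whatever the value, so the 5% does not hold for it.

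In 2 genes every hybrid was below every P. formosa fish in an organ other than those that met the rule. The ratio of hybrid to P. formosa was 0.102 in ovary for gene 103153201, against 3.32 in brain and 16.7 in liver. For gene 103132320 it was 0.427 in liver, against 3.12 in brain, and its ovary ratio also met the rule. The difference between organs was not tested.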

How the results depend on the processing

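Over 10 results, all of them numbers of genes, 109 of 127 values under other settings were within 1.5 times the reported one. A number of genes has no direction, so this does not check the direction of any difference. The number of members, 37, was 100 with a ratio of at least 2, 13 with a ratio of at least 5, 10 with a hybrid mean of at least 5 CPM, and 13 with 1 CPM added in the ratio. It was 34 to 43 with 1 fish left out and 47 with TMM-scaled CPM (33 of them members). With hybrids of the first library-number range only it was 53 (30 of them members), and with the second only 52 (35 of them members). Fewer hybrids then had to lie above all P. formosa fish. Of the 81 pairs, 70 kept a ratio of at least 3 with first-range hybrids and 79 with second-range hybrids. The number was 41 without P. formosa brains 4 and 11, a setting chosen after seeing the data. Numbers shared by the genotypes name different animals: deviations of same-numbered fish correlated at -0.21 to 0.15, and 3 of 3 hybrid livers, 2 of 3 P. formosa livers and 1 of 3 brains of either genotype correlated best with their own number. With that number as a replicate block, which leaves few degrees of freedom, 4 of the 15 picked genes were called higher in ovary, 4 of 15 in brain and 13 of 21 in liver, where 228 ovary genes (1.03%), 40 brain genes (0.177%) and 2295 liver genes (13.2%) were called higher over all, in place of 2894, 966 and 3916. With 1 fish left out, 10 to 11 were called in ovary, 14 to 16 in liver and 9 to 10 in brain. For members between library-number ranges, DESeq2 called 2 in brain, 8 in liver and 8 in ovary, and with 1 hybrid left out the numbers were 0 to 1, 0 to 8 and 0 to 7. These ranges include fits that left a single fish in a library-number range: those without hybrid 4 or 10, and all such fits in ovary. No conclusion is drawn from those fits, so the stability of the ovary number could not be judged. Without hybrid 11, 12, 13 or 14 the liver number was 8, 4, 1 or 2. Of all genes, DESeq2 called 2.30% higher and 3.35% lower in second-range brains, 10.7% and 8.03% in livers, and 8.62% and 7.04% in ovaries. The edgeR shares were 0.248% and 0.942%, 4.60% and 5.64%, and 2.23% and 2.32%. DESeq2 thus called more genes in general, and its higher numbers are not particular to the members. With the fish as a replicate block, the members called between hybrid organs were 29, 24 and 32 in place of 29, 23 and 31. Upper-quartile factors shifted the median of all liver genes to -0.17 from -0.01, and DESeq2 size factors shifted that of brain over ovary in hybrids to 0.24 from 0.06. Low counts limit the set: 54 of 81 pairs have a P. formosa mean under 1 CPM.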
